A study of Mus musculus with 4 samples.

Results

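Footprints of ribosomes at translation initiation sites were examined for 159 transcripts of ubiquitin ligase families and deubiquitinases, out of 6352 transcripts in the authors' table. Members were chosen by gene symbol alone: F-box proteins (Fbx, 31), RING finger proteins (Rnf, 45), Kelch-like adaptors (Klhl, 17), TRIM proteins (15), cullins (7), MARCH ligases (5), HECT ligases of the Ube3 group (3) and Praja ligases (2) made up 125 ligases and adaptors, and USP (25), OTU (6) and UCH (3) enzymes made up 34 deubiquitinases. The libraries came from primary mouse cortical neurons given harringtonine, a drug that holds ribosomes at start sites, at 5 µg/ml for 3 min. KO SC and WT SC are the Ltn1 KO and WT libraries whose titles give Ttc3 RNAi, and KO TTC and WT TTC are those whose titles give scrambled RNAi, whereas the codes themselves read as scramble (SC) and Ttc3 (TTC), so the libraries are called by genotype and code. Ltn1 encodes an E3 ligase of ribosome-associated quality control, and the study asked how initiation on mRNAs differs in neurons without it. Each of the 4 groups had 1 library, and nothing in the labels gives the number of cultures or animals behind it.

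Ubiquitin ligases (E3) choose the proteins that receive ubiquitin, and deubiquitinases take ubiquitin off again. Cullins are scaffolds that hold a RING protein at one end and an adaptor with its substrate receptor at the other, so that F-box proteins serve with Cul1 and Kelch-like BTB proteins with Cul3. TRIM, Rnf, MARCH and Praja proteins carry their own RING or RING-like domain, and the Ube3 enzymes carry a HECT domain that takes up ubiquitin before passing it on. USP, UCH and OTU enzymes are cysteine proteases, and Uchl1 of the UCH group is one of the most abundant proteins of neurons. The name pattern also took in proteins whose activity is doubtful, such as Usp39, which lacks a complete catalytic site, and Trim44, which lacks a RING domain.

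The 5′ ends of 4 members are shown: Marchf6 and Uchl1 because they passed between KO and WT in both pairs of libraries, and Fbxo31 and Fbxo21 because they had the lowest adjusted p-values of the members in the SC pair. In each, 15 bases before a transcript start of the RefSeq promoter table (GRCm38.p6) are in lower case and the 15 bases from that start in capitals, written 5′ to 3′ on the strand of the gene. For Uchl1 and Fbxo21 this start is the first base of the gene's span in RefSeq, and for Marchf6 and Fbxo31 it lies 45 and 58 bases inside the span, so that the annotated gene begins further upstream.
Uchl1, chr5:66676106-66676135 (+): ctgtgcggtgcatggGGGAGTTCGAGCCCT
Marchf6, chr15:31531023-31531052 (-): cggccgcgcgcccctCCCCCCTCCCCGGCG
Fbxo31, chr8:121578792-121578821 (-): cctggccgcctgcgcAGAGCGCTGTGCGTG
Fbxo21, chr5:117976755-117976784 (+): cgcgcgcgcccgcccGCACAGCGGCCCCCT
At this start Marchf6 had a run of 11 pyrimidines, and the others began with a purine. A start with C followed by at least 4 bases that are each C or T, the form known from mRNAs of the translation machinery, was looked for on the transcribed strand at the annotated start only. It was found in 3 of the 123 members with an entry in the promoter table (Fbxo2, Marchf6 and Trim46; 2.44%) and in 155 of 4912 genes of the whole table (3.16%). None of the 27 deubiquitinases with an entry had it. The median GC content of the 250 bases upstream was 63.2% for members and 61.2% for all genes. These letters lie at the start of the transcript and not at the start codon, where the footprints were counted.

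Values were deposited as RPM, that is, reads scaled to a common library size, and whole reads could be recovered from them. Total reads were 2673112 in KO SC, 2096153 in WT SC, 3655827 in KO TTC and 1460425 in WT TTC, so that 1 read was worth 0.374, 0.477, 0.274 and 0.685 RPM in this order. A count of 0 allows up to 3 reads, or 1.12, 1.43, 0.821 and 2.05 RPM. Intervals cover counting error only, and reads without molecular identifiers are not independent molecules. Ltn1 (chromosome 16, 87376651 to 87432619) had 37 reads in KO SC, 10 in WT SC, 0 in KO TTC and 2 in WT TTC, so in the SC pair it was higher in the library labelled KO. Which exons the KO allele lacks is not given in the sources used here, so that footprints at its start site do not check the genotype. Ttc3 (chromosome 16, 94370625 to 94469222) had 2 reads in KO SC and 3 in WT SC, the libraries titled Ttc3 RNAi, and 0 in KO TTC and WT TTC. The counts of Ltn1 in the SC pair, and those of Ttc3, run opposite to the order that the labels would give. Those of Ttc3 rest on 5 reads in all, and neither gene decides whether the labels are right. Every direction below is between libraries as labelled. All 13 neuron markers were measured and summed to between 1769 and 2033 RPM, of which Tubb3, the tubulin of neurons, held 1043 to 1278 RPM. Between the codes neuron markers went both ways. Gad1, Gad2, Nefl and Rbfox3 were lower in KO SC than in KO TTC, with Gad1, which makes the transmitter GABA, at 8.60 RPM in KO SC against 27.9 in KO TTC (exact binomial test, adjusted p = 1.22e-06), while Tubb3 was higher. In WT SC, Gad1 and Rbfox3 were lower and Stmn2 and Syt1 higher than in WT TTC. Between the genotypes Tubb3 alone passed, with 1278 RPM in KO SC against 1057 in WT SC. The part of these markers in the results below was not tested. Astrocyte markers (5 of 6 measured) summed to 88.7 RPM in KO SC against 149 in WT SC, and to 126 in KO TTC against 178 in WT TTC. Aldoc alone held 75.2, 115, 104 and 142 RPM of these sums in the same order of libraries. Oligodendrocyte markers (5 of 7 measured) summed to 10.8 RPM in KO SC against 36.7 in WT SC, and to 35.8 in KO TTC against 60.9 in WT TTC. Markers of microglia and endothelial cells were not in the table. The glial sums were thus lower in KO than in WT and lower in SC than in TTC, and their part in the results below was not tested. Not every marker followed its sum. Slc1a3 had 6.36 RPM in KO SC against 5.72 in WT SC. Olig1 had 6.02 RPM in KO TTC and 7.63 in WT SC, against 3.42 in WT TTC. No astrocyte or oligodendrocyte marker passed the exact test as higher in KO or in SC. In bulk libraries, fewer cells of a type and less RNA per cell cannot be told apart.

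Members were thinly covered. Their median level was 1.87 RPM in KO SC, 1.43 in WT SC, 1.64 in KO TTC and 1.37 in WT TTC, against 2.62, 2.86, 3.01 and 2.74 RPM over all transcripts in the same order of libraries. Reads were present in all 4 libraries for 77 members, and 38 members had a mean of at least 5 RPM. Fbxl19, Fbxo45, Klhl1, Rnf19a, Rnf121, Otud1, Otud6b and Usp27x had 0 reads in every library. The members took 1.27% of the reads at listed sites in KO SC, 1.31% in WT SC, 1.22% in KO TTC and 1.28% in WT TTC. Each value is a count at 1 start site, so it was not divided by the length of the gene, and levels of different genes were compared as footprints per site.

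The 2 classes did not lie in a fixed order. The median ligase or adaptor had 1.87 RPM and the median deubiquitinase 1.12 RPM in KO SC, and 1.91 and 1.37 RPM in KO TTC. In the WT libraries the deubiquitinases had the higher median, at 1.43 RPM for ligases and adaptors and 2.15 RPM for deubiquitinases in WT SC, and 1.37 and 2.05 RPM in WT TTC. On the log10(RPM + 1) scale, the median of ligases and adaptors minus that of deubiquitinases came to 0.138 in KO SC and -0.111 in WT SC. The difference was 0.0903 in KO TTC and -0.110 in WT TTC. In this order, outer limits of both medians' 95% intervals gave -0.232 to 0.559, -0.346 to 0.530, -0.284 to 0.279 and -0.346 to 0.258. All 4 ranges contain 0, but they are wider than a 95% interval of the difference, and genes are not replicates. Among members with reads in every library the difference was above 0 in the WT libraries as well. The medians of both classes correspond to a few reads. Sums over the classes rest on more reads. Ligases and adaptors summed to 557 RPM in KO SC (exact Poisson 95% interval 529 to 586) against 574 in WT SC (542 to 607), and to 545 RPM in KO TTC (521 to 569.6) against 555 in WT TTC (518 to 595). Deubiquitinases summed to 212 RPM in KO SC (195 to 229.9) against 262 in WT SC (240.5 to 285), and to 274 RPM in KO TTC (257 to 292) against 325 in WT TTC (296 to 355). The intervals of the ligase sums overlapped in all pairs, and those of the deubiquitinase sums did not overlap within either pair.

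**Figure D1:**
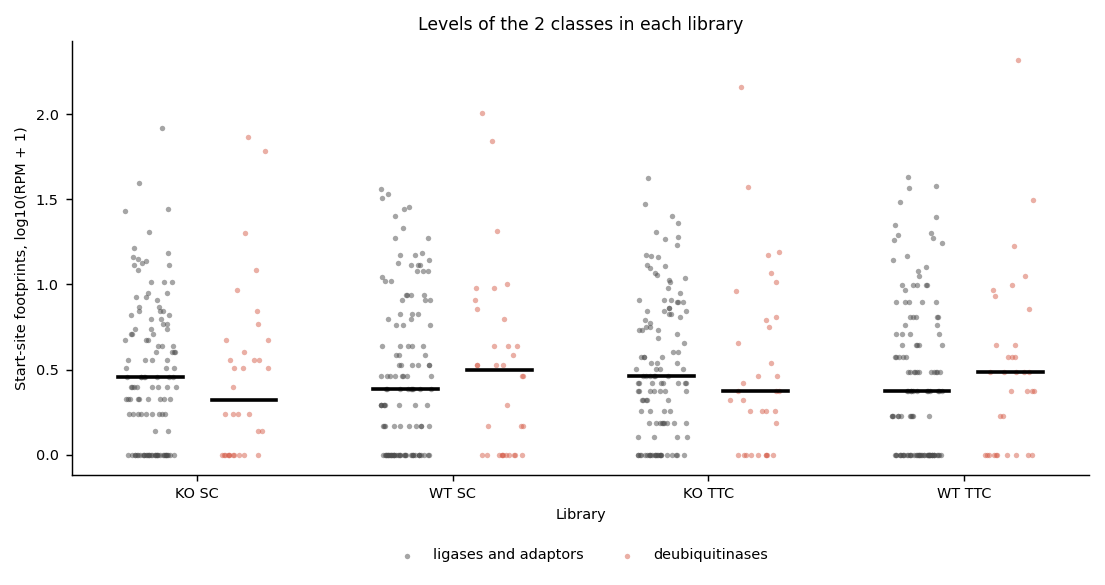
Level of each member at its start site, log10(RPM + 1) (vertical axis), in the 4 libraries (horizontal axis), with ligases and adaptors in grey and deubiquitinases in red. Black lines are medians of the class: the grey line lies above the red in KO SC and KO TTC and below it in WT SC and WT TTC, and the points at the bottom are members with 0 reads.

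Of all reads on members, deubiquitinases took 27.5% in KO SC (566 of 2055 reads, exact binomial 95% interval 25.6 to 29.5%) and 31.3% in WT SC (549 of 1752, 29.2 to 33.6%). They took 33.5% in KO TTC (1002 of 2995, 31.8 to 35.2%) and 36.9% in WT TTC (474 of 1285, 34.2 to 39.6%). The share was lower in KO than in WT in both pairs and lower in SC than in TTC in both genotypes. This order did not hold without one gene. Uchl1 alone held 34.3% of the deubiquitinase reads in KO SC, 38.3% in WT SC, 52.6% in KO TTC and 63.3% in WT TTC, and Uchl1, Usp14 and Usp33 together held 71.2% to 75.1%. Without Uchl1, an alternative added after the data were seen, deubiquitinases took 20.0% of member reads in KO SC, 22.0% in WT SC, 19.2% in KO TTC and 17.7% in WT TTC. The other 33 deubiquitinases summed to 139 RPM in KO SC (125 to 154) against 162 in WT SC (145 to 179.9), and to 129.9 RPM in KO TTC (119 to 142) against 119 in WT TTC (102 to 138). Their intervals overlapped within both pairs, and the TTC pair had the order turned round.

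**Figure D2:**
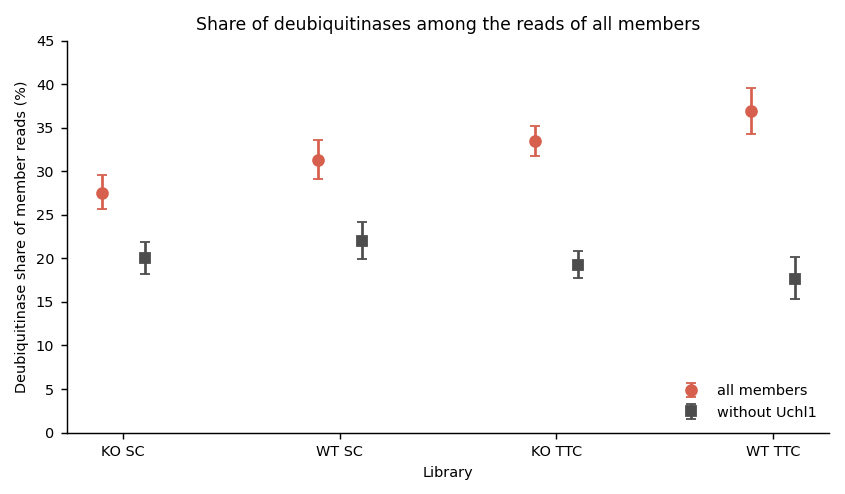
Percent of all member reads that lay on deubiquitinases (vertical axis) in each library (horizontal axis), with all members (red circles) and without Uchl1 (grey squares), and exact binomial 95% intervals as bars. The red points run from 27.5% in KO SC to 36.9% in WT TTC, and the grey squares lie between 17.7% and 22.0%.

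By mean RPM over the 4 libraries, the highest members were a deubiquitinase of neurons, an enzyme of the proteasome and an F-box protein. Uchl1 (chromosome 5, 66676121 to 66687234) had 72.6 RPM in KO SC, 100.2 in WT SC, 144 in KO TTC and 205 in WT TTC, and no interval of one library reached that of another. Usp14, which sits on the proteasome and trims ubiquitin from its substrates, had 59.5 RPM in KO SC, 68.7 in WT SC, 36.4 in KO TTC and 30.1 in WT TTC. Usp14 therefore ran against Uchl1, with the SC libraries high and the TTC libraries low. Fbxo31 (chromosome 8, 121549443 to 121578864), a receptor of Cul1 ligases, had 81.6 RPM in KO SC, 35.3 in WT SC, 41.0 in KO TTC and 29.4 in WT TTC, with KO SC standing above the other libraries. Trim9, a brain-enriched ligase known from axon guidance, had 26.6 RPM in KO SC, 26.7 in WT SC, 19.4 in KO TTC and 35.6 in WT TTC. Marchf6 (chromosome 15, 31455899 to 31531082), a ligase of the endoplasmic reticulum membrane that acts on misfolded proteins and on enzymes of sterol synthesis, had 11.97 RPM in KO SC, 31.0 in WT SC, 13.4 in KO TTC and 41.8 in WT TTC. It was low in both KO libraries and high in both WT libraries, without overlap of their intervals.

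Within the cullins, the scaffold of F-box ligases had the highest mean over the 4 libraries, although Cul2 and Cul3 were above it in KO TTC and Cul5 in WT TTC. Cul1 had 9.35 RPM in KO SC, 10.97 in WT SC, 4.38 in KO TTC and 6.85 in WT TTC. Cul5, the scaffold of SOCS-box receptors, had 7.48 RPM in KO SC, 7.63 in WT SC, 2.19 in KO TTC and 8.22 in WT TTC, so only KO TTC was low. Cul3, the scaffold of the Kelch-like adaptors, had 1.50 RPM in KO SC, 4.77 in WT SC, 6.02 in KO TTC and 2.05 in WT TTC. Its 3 to 22 reads gave no fixed order of genotypes or codes. Cul2, the scaffold used by the von Hippel-Lindau receptor, had 3.37 RPM in KO SC, 5.72 in WT SC, 7.11 in KO TTC and 1.37 in WT TTC. Cul4a had 1.87 to 3.34 RPM and Cul7 0.685 to 2.86 RPM, and Cul4b had 1 or 2 reads in each library. Each cullin lay below Fbxo31, the highest F-box protein, in every library. The median cullin, however, lay above the median F-box protein in each library. These medians were 2.62 against 1.87 RPM in KO SC and 4.77 against 0.954 in WT SC. They were 2.19 against 1.64 RPM in KO TTC and 2.05 against 1.37 in WT TTC.

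Of the Ube3 enzymes, Ube3c, which adds to ubiquitin chains at the proteasome, had 7.86 RPM in KO SC, 5.72 in WT SC, 11.8 in KO TTC and 13.0 in WT TTC. Ube3a, the ligase lost in Angelman syndrome, had 2 to 4 reads in each library, and Ube3b had 3 reads in KO TTC and 0 in the others. Neither could be compared at this depth. Klhl22, the highest of the Kelch-like adaptors by mean over the 4 libraries, had 14.2 RPM in KO SC, 11.9 in WT SC, 21.9 in KO TTC and 24.0 in WT TTC, and in both SC libraries Klhl7 was above it, at 15.3 RPM in KO SC and 12.9 in WT SC. Otub1, the OTU enzyme with the highest mean, which also blocks certain conjugating enzymes without cutting, was nearly level across libraries, at 8.23 RPM in KO SC, 8.59 in WT SC, 8.21 in KO TTC and 10.3 in WT TTC. Usp33 had 19.1 RPM in KO SC, 19.6 in WT SC, 14.5 in KO TTC and 8.22 in WT TTC. Of 7 disease-linked members on a list, Uchl1, Pja1 and Trim32 had a mean of at least 5 RPM and Fbxo7, Fbxw7, Usp7 and Usp9x did not. Fbxo7, a gene of inherited parkinsonism, had 5 reads in KO TTC and 0 elsewhere, and Usp7, a regulator of the p53 pathway, had 0 reads in KO SC, 4 in WT SC, 3 in KO TTC and 4 in WT TTC. Usp9x, an X-linked gene of intellectual disability, had 2.62 RPM in KO SC, 5.25 in WT SC, 5.47 in KO TTC and 1.37 in WT TTC.

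The first question was which members differed between Ltn1 KO and WT neurons in the SC libraries, titled Ttc3 RNAi. Reads of each transcript in KO SC and WT SC were compared with a two-sided exact binomial test given the library totals, with Benjamini-Hochberg adjustment over all transcripts with reads. Such a test compares 2 libraries and not the genotypes. Of 128 members tested, 5 were lower and 3 higher in KO SC at an adjusted p of 0.05 (3.91% and 2.34%), against 4.74% lower and 2.63% higher over all 5355 transcripts tested. These shares are near the background. Members had lower median levels than all transcripts, however, and with fewer reads the test calls less, here and in the comparisons below. Deubiquitinases had 2 lower and 0 higher of 26 while ligases and adaptors had 3 lower and 3 higher of 102. Fbxo21, a substrate receptor that works with Cul1, was lower with 5.99 RPM in KO SC against 24.3 in WT SC (ratio 0.246, 95% interval 0.131 to 0.438, adjusted p = 1.61e-05, exact test). Marchf6 was lower as well, at the levels given above (ratio 0.386, 0.245 to 0.598, adjusted p = 0.000498, exact test). Both decreases exceeded counting error by a wide margin. Fbxw7, the receptor for several phosphorylated growth regulators, had 2.99 RPM in KO SC against 10.0 in WT SC (ratio 0.299, 0.114 to 0.702, adjusted p = 0.0373, exact test). Uchl1 was lower with a ratio of 0.724 (0.593 to 0.885, adjusted p = 0.0249, exact test). Usp45 had 0 reads in KO SC against 7 in WT SC, a ratio of at most 0.544 (adjusted p = 0.0455, exact test). Among the increases, Fbxo31 had a ratio of 2.31 (1.77 to 3.05, adjusted p = 2.61e-08, exact test). Fbxo6, an F-box protein that binds N-glycans of misfolded glycoproteins, had 15 reads in KO SC against 0 in WT SC. It was at least 2.81-fold higher (adjusted p = 0.00742, exact test). Klhl42, an adaptor of Cul3, had 16 reads in KO SC against 0 in WT SC, at least 3.02-fold higher (adjusted p = 0.00452, exact test). Klhl42 did not pass in the TTC pair. Its Poisson 95% intervals there were 2.09 to 6.43 RPM in KO TTC and 0 to 2.53 RPM in WT TTC. F-box proteins therefore stood on both sides, with 2 lower and 2 higher of 26 tested. Rescaling the libraries moved the balance to 2 lower and 3 higher: Uchl1 (adjusted p = 0.0810 and 0.174), Fbxw7 (0.0594 and 0.0884) and Usp45 (0.0547 and 0.0580) no longer passed the exact test with totals over the listed sites or with median-of-ratios factors.

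The same question was asked in the TTC libraries, titled scrambled RNAi. In KO TTC, 5 members were lower and 3 higher than in WT TTC out of 138 tested (3.62% and 2.17%), against 4.41% lower and 3.14% higher over 5448 transcripts. Marchf6 was again lower (ratio 0.321, 0.216 to 0.475, adjusted p = 1.02e-06, exact binomial test), and so was Uchl1 (ratio 0.702, 0.608 to 0.811, adjusted p = 0.000144, exact binomial test). Trim9 was lower with 19.4 RPM in KO TTC against 35.6 in WT TTC (ratio 0.545, 0.376 to 0.796, adjusted p = 0.0246, exact binomial test). Rnf157, a brain-enriched RING ligase known from survival and dendrite growth of rodent neurons, had 9.85 RPM in KO TTC against 21.2 in WT TTC (ratio 0.464, 0.279 to 0.776, adjusted p = 0.0395, exact binomial test). It had 4.49 RPM in KO SC against 9.54 in WT SC, a ratio of 0.470 that did not pass there (adjusted p = 0.250, exact binomial test). Rnf167, a lysosomal ligase, had 0 reads in KO TTC against 6 in WT TTC. Its ratio was at most 0.339 (adjusted p = 0.0129, exact binomial test). The 3 increases were in ligases or adaptors, as were 4 of the 5 decreases, and this class made up 110 of the 138 members tested. Fbxo25, an F-box protein, had 28.7 RPM in KO TTC against 11.6 in WT TTC (ratio 2.47, 1.47 to 4.40, adjusted p = 0.0058, exact binomial test). Fbxo22, another F-box protein, had 25 reads in KO TTC against 0 in WT TTC, at least 2.51-fold higher (adjusted p = 0.0119, exact binomial test). Rnf187 had 26 reads in KO TTC against 0 in WT TTC, at least 2.62-fold higher (adjusted p = 0.00771, exact binomial test). Of the deubiquitinases, Uchl1 alone passed among 28 tested. With median-of-ratios factors Rnf157 was lost (adjusted p = 0.0577, exact binomial test).

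The 2 pairs share no library, so their results could be set side by side. Marchf6 and Uchl1 were the members that passed in both, 2 of 159, each lower in KO, with Uchl1 lost in the SC pair after either rescaling. Of all 6352 transcripts, 43 passed as lower in both pairs, 28 as higher in both and 16 in opposite directions. The sums of astrocyte and oligodendrocyte markers given above were also lower in KO in both pairs, and their relation to these calls was not tested. Over the members, 34 were lower in KO in both pairs, 24 were higher in both and 57 went opposite ways, and over all transcripts these numbers were 1455, 1221 and 2172. The median difference in log10(RPM + 1) was 0 in both pairs for members and for all transcripts. The difference of the genotype ratio between the pairs was itself tested with an exact conditional test on the reads of all 4 libraries, and 2 of 110 members passed, against 3.96% of 4642 transcripts. Fbxo21 was one of them (adjusted p = 0.0201, exact test), with a ratio of 0.246 in the SC pair. In the TTC pair its ratio was 0.873 (0.545 to 1.43), and it had 16.1 RPM in KO TTC against 18.5 in WT TTC. Pja1, an X-linked RING ligase of brain, was the other (adjusted p = 0.0227, exact test). It had 38.5 RPM in KO SC against 27.7 in WT SC, while KO TTC had 7.11 RPM against 16.4 in WT TTC. Neither pair passed for Pja1 on its own (adjusted p = 0.248 and 0.0546, exact binomial test). Members called in 1 pair are not thereby shown to differ between pairs: the same test gave an adjusted p of 0.0721 for Fbxo25, 0.0854 for Fbxw7, 0.2 for Trim9 and 0.244 for Fbxo31 (exact test).

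**Figure D3:**
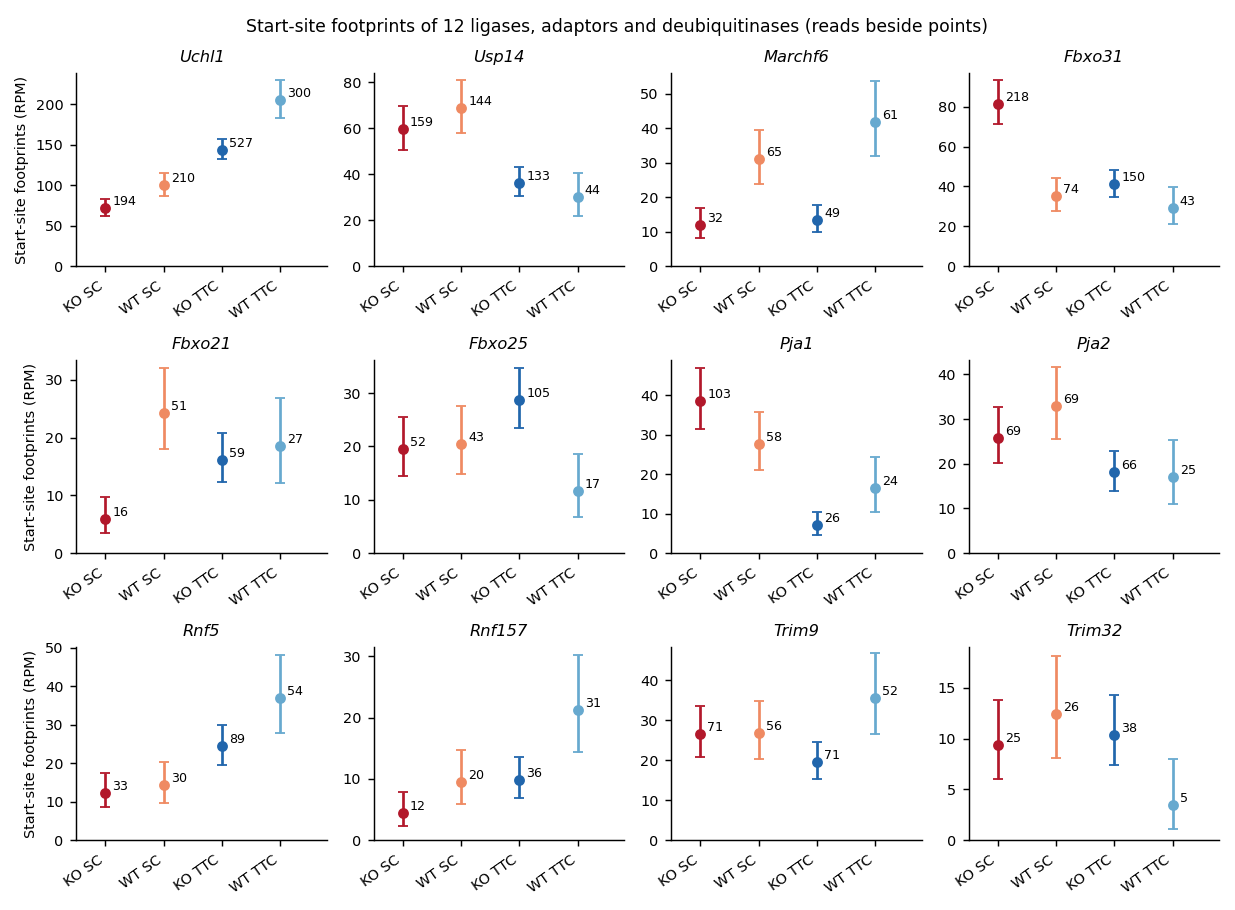
Start-site footprints in RPM (vertical axes, each from 0) of 12 members in the 4 libraries (horizontal axes), with the read count beside each point and bars for exact Poisson 95% intervals. Marchf6 is low in KO SC and KO TTC, at 11.97 and 13.4 RPM, against 31.0 and 41.8 RPM in WT SC and WT TTC, while Uchl1 and Rnf5 are lower, and Usp14 higher, in both SC libraries than in the TTC library of the same genotype.

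The second question was which members differed between the RNAi arms. In Ltn1 KO neurons, 7 of 140 members tested were lower in KO SC than in KO TTC and 10 were higher (5.00% and 7.14%), against 10.9% lower and 5.71% higher over 5623 transcripts. The split of members was not tested against that of all transcripts, and with thinly covered transcripts (means under 5 RPM) left out it was 6 lower and 5 higher. Ligases and adaptors had 5 lower and 8 higher of 112, and deubiquitinases had 2 lower and 2 higher of 28. Uchl1 was lower with a ratio of 0.503 (0.425 to 0.595, adjusted p = 1.19e-14, exact binomial test). Rnf5, a membrane-anchored ligase of the endoplasmic reticulum (chromosome 17, 34601099 to 34603561), had 12.3 RPM in KO SC against 24.3 in KO TTC (ratio 0.507, 0.329 to 0.764, adjusted p = 0.00712, exact binomial test). Fbxo21 was lower too (ratio 0.371, 0.199 to 0.653, adjusted p = 0.00325, exact binomial test). Pja1 (chromosome X, 99465734 to 99471268) had the largest ratio of the members that passed with reads in both libraries, with 38.5 RPM in KO SC against 7.11 in KO TTC (ratio 5.42, 3.50 to 8.68, adjusted p = 4.56e-15, exact binomial test). Fbxo31 was higher with a ratio of 1.99 (1.61 to 2.46, adjusted p = 8.96e-09, exact binomial test), and Usp14 with a ratio of 1.63 (1.29 to 2.07, adjusted p = 0.000623, exact binomial test). The cullins split, with Cul3 lower (ratio 0.249, 0.0623 to 0.732, adjusted p = 0.0355, exact binomial test) and Cul5 higher (ratio 3.42, 1.44 to 8.97, adjusted p = 0.0255, exact binomial test). The other calls rested on a mean below 10 RPM and were named after their values were seen: Fbxo28, Rnf187 and Usp11 were lower, and Fbxo2, Fbxo41, Rnf11, Klhl4, Usp10 and Fbxo6 were higher. The last 3 had 13, 7 and 15 reads in KO SC against 0 in KO TTC. Totals over the listed sites gave 4 lower and 11 higher members, and median-of-ratios factors gave 3 lower and 12 higher. Cul3 did not pass under either (adjusted p = 0.0778 and 0.0786, exact binomial test), nor Rnf187 under the second (0.0574).

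In WT neurons, 5 members were lower and 5 higher in WT SC than in WT TTC out of 132 tested (3.79% each), against 7.02% lower and 3.82% higher over 5345 transcripts. Uchl1 was lower with 100.2 RPM in WT SC against 205 in WT TTC (ratio 0.488, 0.407 to 0.584, adjusted p = 5.50e-13, exact binomial test). Rnf5 was lower with 14.3 RPM in WT SC against 37.0 in WT TTC (ratio 0.387, 0.239 to 0.616, adjusted p = 0.000669, exact binomial test). Usp14 was higher (ratio 2.28, 1.62 to 3.27, adjusted p = 3.91e-05, exact binomial test). These 3 of 159 members passed between the codes in both genotypes, in comparisons that share no library, and each went the same way in both. Of all 6352 transcripts, 145 passed as lower in both, 62 as higher in both and 21 in opposite directions. Astrocyte and oligodendrocyte marker sums were likewise lower in SC than in TTC in both genotypes, like Uchl1 and Rnf5 and unlike Usp14. The astrocyte sums were mostly Aldoc, and the relation of these sums to the calls was not tested. Pja2, the ligase of the regulatory subunits of protein kinase A, had 32.9 RPM in WT SC against 17.1 in WT TTC (ratio 1.92, 1.20 to 3.17, adjusted p = 0.0454, exact binomial test). Trim32, a ligase whose loss causes a muscular dystrophy, had 12.4 RPM in WT SC against 3.42 in WT TTC (ratio 3.62, 1.37 to 12.1, adjusted p = 0.0490, exact binomial test). Fbxw7 had 21 reads in WT SC against 0 in WT TTC, at least 3.63-fold higher (adjusted p = 0.000638, exact binomial test). Fbxo22 had 12 against 0, at least 1.94-fold higher (adjusted p = 0.0247, exact binomial test). WT TTC is the shallowest library, and the same 2 genes had 8 and 17 reads in KO SC. Trim35 was lower with 1.91 RPM in WT SC against 8.90 in WT TTC (ratio 0.214, adjusted p = 0.0464, exact binomial test). Fbxo44 had 0 reads in WT SC against 7 in WT TTC, a ratio of at most 0.483 (adjusted p = 0.0237, exact binomial test). Rnf167 had 0 reads in WT SC against 6 in WT TTC, a ratio of at most 0.592 (adjusted p = 0.0455, exact binomial test). Since it had reads in WT TTC alone, its calls here and in the TTC pair rest on the same 6 reads. Under both ways of rescaling 3 members were lower and 6 higher, with Trim35 and Rnf167 no longer past the threshold (adjusted p = 0.0577 for each with totals over the listed sites and 0.0567 for each with median-of-ratios factors, exact binomial test).

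**Figure D4:**
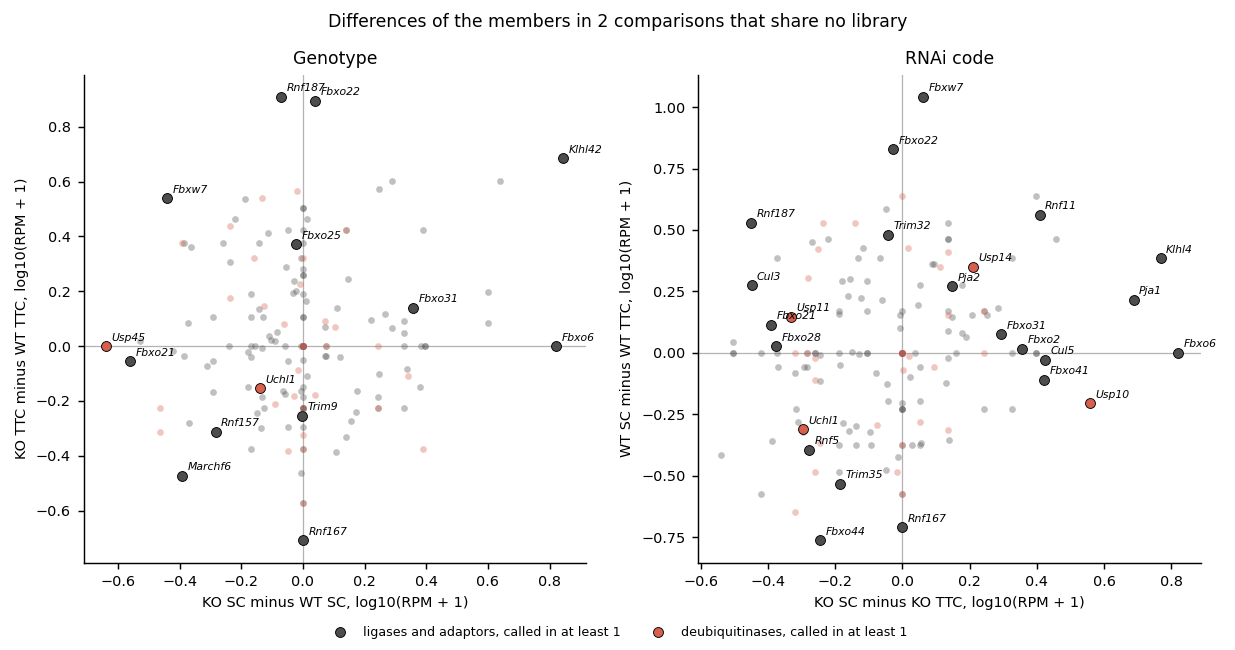
Differences in log10(RPM + 1) of the members in pairs of comparisons that share no library: KO SC minus WT SC (horizontal) against KO TTC minus WT TTC (vertical) on the left, KO SC minus KO TTC (horizontal) against WT SC minus WT TTC (vertical) on the right. Large points with names passed the exact binomial test in at least 1 of the 2, in grey for ligases and adaptors and red for deubiquitinases, and most of them lie far from 0 on 1 axis only, with Marchf6 and Uchl1 lower on both axes on the left and Rnf5 and Uchl1 on the right.

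Across the 4 comparisons 30 of 159 members passed at least once, 25 ligases and adaptors and 5 deubiquitinases. How many of all transcripts passed at least once was not counted, so this number has no background beyond the shares per comparison given above. Of these, 19 passed in 1 comparison, 10 in 2 and Uchl1 in all 4, and 13 had a mean below 5 RPM. The comparisons of genotype and of code share libraries, so that KO SC, for example, enters both the SC pair and the comparison of codes in Ltn1 KO. By family, F-box proteins had 2 lower and 2 higher of 26 tested in the SC pair (7.69% each, against 4.74% lower and 2.63% higher over all transcripts). They had 0 lower and 2 higher of 25 in the TTC pair (8% higher, against 3.14%), 2 lower and 4 higher of 29 between the KO libraries (6.90% and 13.8%, against 10.9% and 5.71%), and 1 lower and 2 higher of 25 between the WT libraries (4% and 8%, against 7.02% and 3.82%). These are counts of 4 or fewer and the difference from all transcripts was not tested. Kelch-like adaptors had 1 call in the SC pair (Klhl42) and 1 between the KO libraries (Klhl4), and OTU and Ube3 members had none in any comparison.

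Other genes of the pathway were looked at as lists. Of other HECT ligases, 17 of 23 listed were in the table, and Smurf1 alone passed in any comparison, higher in KO SC than in KO TTC. Other RING, RBR and U-box ligases (35 of 51 in the table) had 2 lower and 1 higher of 28 tested in the SC pair and 1 lower of 28 in the TTC pair. Among them Stub1, the U-box ligase that works with Hsp70-type chaperones, had 29.8 RPM in KO TTC against 58.9 in WT TTC (exact binomial test, adjusted p = 0.000355). It had 21.9 RPM in WT SC, so that, like Uchl1, it was lower in KO TTC and in WT SC than in WT TTC. In KO SC it had 16.8 RPM, again lower than in KO TTC (exact binomial test, adjusted p = 0.0103). Unlike Uchl1, it did not pass between KO SC and WT SC (exact binomial test, adjusted p = 0.548). Other deubiquitinases (9 of 20 in the table) had 0 calls in all 4 comparisons. Subunits and regulators of cullin ligases (58 of 76 in the table) had 2 lower of 53 in the SC pair, 1 higher of 49 in the TTC pair, 11 lower and 1 higher of 55 between the KO libraries, and 3 lower and 2 higher of 51 between the WT libraries. The 11 that were lower in KO SC than in KO TTC included the adaptor Skp1a of F-box proteins (102 RPM in KO SC against 136 in KO TTC, exact test, adjusted p = 0.0015) and Ddb1, the adaptor of Cul4 ligases (23.6 RPM in KO SC against 38.3 in KO TTC, exact test, adjusted p = 0.0126). Their share, 11 of 55, can be read against the 10.9% of all transcripts called lower there.

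Reads of members varied between libraries more than counting error allows. The mean Pearson statistic of members with at least 20 reads, which is near 1 where counting error alone acts, was 3.88 in the SC pair, 4.33 in the TTC pair, 6.71 between the KO libraries and 6.02 between the WT libraries, against 3.28, 3.17, 5.12 and 4.15 over all transcripts. With genotype and code as terms over the 4 libraries, edgeR's quasi-likelihood test called 0 of 51 members and 0 of 2808 transcripts for either term. At an unadjusted p of 0.05 it had 4 members lower and 1 higher for genotype and 6 lower and 5 higher for code (edgeR). Over all 2808 transcripts it had 133 lower and 60 higher for genotype and 282 lower and 129 higher for code. The lowest adjusted p of a member was 0.691 for genotype and 0.270 for code (edgeR). The differences named above are therefore differences between libraries.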

How the data were processed

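Start-site footprints were measured once in each of 4 libraries. The authors deposited RPM values for 6352 transcripts, scaled to all reads of a library. Tools named in the submitters' processing notes are Bowtie, SAMtools and bedtools, with the build GRCm38/mm10, all without versions. The window counted, the annotation and the choice of transcripts are not given in the sources used here. Whole reads were recovered from the steps of the values (100% whole within 1e-06). Symbols came from the transcript list of the study for 6351 transcripts (6342 symbols, 38 identifiers mended), whose column of the authors' own KO minus WT differences was not used, and positions and 5′ ends from RefSeq, GRCm38.p6. No column was left unmapped.

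Members, gene lists and tests were chosen with earlier results of these data known, and the lists are described by counts. Pairs of libraries were compared by an exact binomial test (two-sided, on whole reads given both library totals), and the genotype ratio between codes with an exact conditional test on the 2 by 2 counts, each adjusted by the Benjamini-Hochberg method over all transcripts that could be tested, at 0.05. Ratios have exact 95% intervals. Scripts were tested on simulated data. Named were members that passed (where over 10 passed, the 5 highest and 5 lowest ratios at a mean of at least 10 RPM), the 3 highest of each class, the highest of each family, and a list of cullins, Ube3 enzymes and disease genes. Others are said to be named later. Alternatives were other library totals (those of the listed sites, or median-of-ratios factors), a minimum of 5 RPM, a pseudocount of 0.1 RPM in place of 1, members without Usp39, Trim44 and Rnf214, exchange of the RNAi labels, and an additive edgeR fit with 1 residual degree of freedom. Python 3.11.15 (numpy 2.4.6, pandas 2.3.3, scipy 1.17.1, matplotlib 3.10.9), R 4.3.3 and edgeR 4.0.16 were used.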

Additional observations from a re-analysis of the deposited data

Results flagged for a closer look

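The genotype ratio of Fbxo21 differed between the SC and TTC pairs (adjusted p = 0.0201, exact conditional test on the reads of the 4 libraries), with KO over WT at 0.246 for SC and 0.873 for TTC. The genotype ratio of Pja1 differed as well (adjusted p = 0.0227, same exact test), at 1.39 for SC and 0.433 for TTC, so that KO was the higher library in one pair and the lower in the other. These 2 members were picked out because a direct test of the difference between pairs passed, among 110 members tested. Each group had 1 library, so no spread between replicates stands behind either value.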

How the results depend on the processing

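The exchange of RNAi labels turns the median difference of members between the KO libraries round by construction (0.00864 in place of -0.00864). Among members with reads in every library, the median of ligases and adaptors lay above that of deubiquitinases by 0.00110 in WT SC and 0.0610 in WT TTC, where it lay below with all members. The additive edgeR fit tests genotype and code over the 4 libraries and not single pairs of libraries. It called 0 of 51 members for either term, with or without TMM factors. Members outside these 51, such as Fbxw7 and Usp45, were not tested again. An unadjusted p of 0.05 was passed by 4 lower and 1 higher members for genotype (edgeR). For code it was passed by 6 lower and 5 higher (5 and 7 with TMM factors). Over all 2808 transcripts these numbers were 133 and 60 for genotype (97 and 104 with TMM factors). For code they were 282 and 129 (207 and 186 with TMM factors). In the SC pair 8 members passed, against 5 with totals over the listed sites and 5 with median-of-ratios factors, and between the KO libraries 17 passed, against 11 at a mean of at least 5 RPM. At that minimum, members had median differences in log10(RPM + 1) of -0.0743 (SC pair), -0.0385 (TTC pair) and 0.0104 (WT libraries). The medians over all transcripts moved as well, to -0.0317, -0.0142 and -0.0288 in the same order. Each of these was 0 without the minimum. Calls among members were then 5 lower and 1 higher, 6 lower and 1 higher, and 5 lower and 4 higher in that order. Shares over all transcripts at this minimum are not given, so these calls have no background. Without Uchl1 the share of deubiquitinases in member reads was 20.0% in KO SC, 22.0% in WT SC, 19.2% in KO TTC and 17.7% in WT TTC. Of 36 ratios of named members that passed, 30 stayed past the threshold with totals over the listed sites and 28 with median-of-ratios factors, and all kept their direction. Median-of-ratios factors added 0.14 to every log2 ratio in the SC pair, 0.06 in the TTC pair, 0.17 between the KO libraries and 0.10 between the WT libraries. Depth limits most members: 1 read is worth up to 0.685 RPM, and the median member had a few reads. The labels give no replicate numbers to pair libraries by, and the additive edgeR fit is the one that compares genotype within code.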
